A study of Arabidopsis thaliana with 12 samples.

Results

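The interaction of hypoxia with flg22 was measured across all 12 RNA-seq samples of the series, and 20074 of the 23396 genes in the count table could be tested. The samples are whole seedlings of wild-type Arabidopsis thaliana Col-0, 10 days old and treated for 1 h, with 5 seedlings per sample and 3 samples per group. Seedlings kept in ambient oxygen received water as the mock treatment (NM) or 100 nM flg22 (NF). Seedlings placed in anaerojars for hypoxia received the same water mock (HM) or, for the combined stress, 100 nM flg22 (HF), and the labels name no mutation or transgene in any group. The interaction is the log2 difference (HF − HM) − (NF − NM). It asks whether the signed log2 response to flg22 is higher (a positive value) or lower (a negative value) in seedlings short of oxygen than in air. For a gene that flg22 raises, a negative value is a weaker response in hypoxia. For a gene that flg22 lowers in both, a positive value is a weaker fall in hypoxia and a negative value a stronger one. The interaction also equals the amount by which the combined stress lies above or below the sum of the single responses on the log2 scale. In whole seedlings, fewer cells of a type and less RNA per cell cannot be told apart.

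flg22 is a peptide of bacterial flagellin that the receptor kinase FLS2 binds together with its co-receptor BAK1 at the plasma membrane. Binding starts a calcium influx, an oxidative burst by the NADPH oxidase RBOHD and MAP kinase cascades, and these change the transcription of many defence genes through WRKY and other factors. Under low oxygen, group VII ERF transcription factors escape degradation through the Arg/N-degron pathway and activate the core hypoxia genes, which include ADH1 and PDC1 for ethanolic fermentation, sucrose synthases and the transcription factor gene LBD41. Hypoxia also limits respiration and so reaches mitochondrial signalling, energy status and growth.

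The count totals lay between 21307650 and 21554050 per sample, so the samples differed little in depth. They differed more in their expression within groups. The summed level of 18 early flg22 marker genes was 328, 354 and 659 CPM (counts scaled to a common library size) in the NM samples and 2128, 591 and 1160 CPM in the HM samples. It was 2784, 6074 and 6773 CPM in NF and 5998, 7688 and 5786 CPM in HF. HM replicate 1 therefore stood above the other mock-treated samples for flg22 markers, and NF replicate 1 stood below the other flg22-treated samples. The summed level of 27 core hypoxia genes was 4766, 2131 and 2857 CPM in HM and 6044, 9603 and 4124 CPM in HF, against 582 to 912 CPM in NM and 1450 to 1999 CPM in NF. Every interaction includes HM replicate 1, so the value without it is given beside a named gene or list where it turned the direction or moved the value by over 1.5 times, and beside some others. This alternative was chosen for the gene lists and named genes after the data were seen. The 4 shoot markers summed to between 28630 and 39931 CPM and the 6 root markers to between 144 and 208 CPM over all samples, and none of these 10 genes was at 0 in a whole group.

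**Figure D1:**
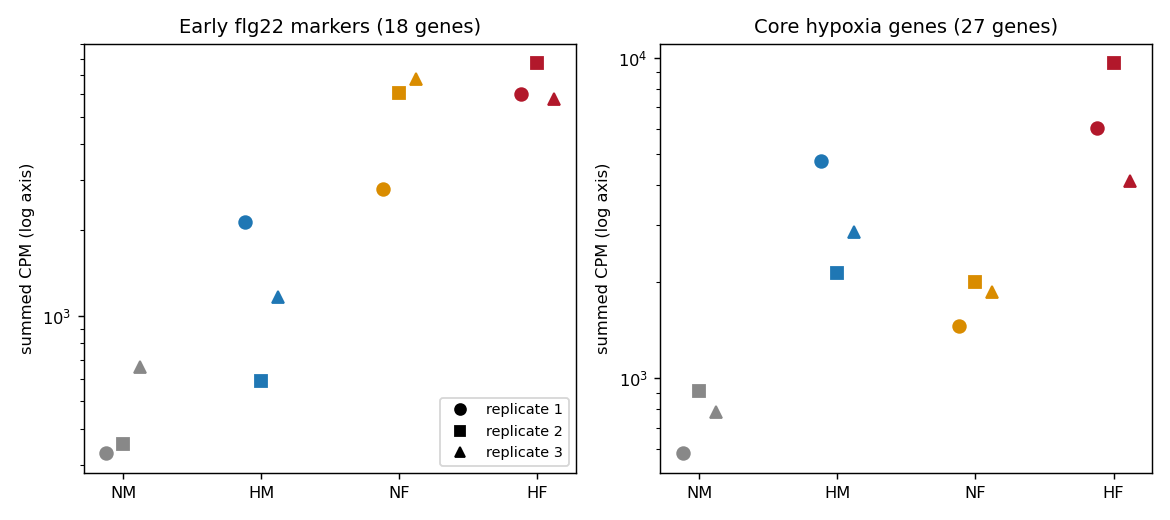
Summed CPM of 18 early flg22 marker genes (left) and 27 core hypoxia genes (right) in each sample, on log axes, with the replicate number as the point shape. HM replicate 1 (2128 CPM) lies above the other HM samples for the flg22 markers, and HF replicate 2 (9603 CPM) is the highest sample for the hypoxia genes.

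No gene passed the test of the interaction (0 of 20074 genes, 0% of those tested, at an adjusted p under 0.05 and a change of more than 1.5-fold), and the smallest adjusted p of edgeR's quasi-likelihood test was 1. At an unadjusted p under 0.05, 152 genes had a positive interaction (0.757% of the genes tested) and 346 had a negative one (1.72%). Together these are 2.48% of the genes tested (498 genes), fewer than the 1004 genes that an unadjusted p of 0.05 would let through if no gene had an interaction. The numbers moved with single samples: without HF replicate 3 there were 392 positive and 344 negative genes, without HF replicate 1 357 and 405, without HM replicate 1 239 and 305, without HM replicate 2 160 and 568, and without NF replicate 1 202 and 524. DESeq2 with the same design called 7 genes (0.0349%), all with a negative interaction, whereas DESeq2 without the replicate number called 0, with 315 genes at an unadjusted p under 0.05. edgeR without the replicate number called 0 as well, with 227 such genes. The single comparisons used beside the interaction also depended on the replicate number as a term of the model. Without it the genes called in either direction by edgeR fell from 2315 to 1419 for NF vs NM, from 1915 to 879 for HF vs HM, from 13 to 0 for HM vs NM (1191 at an unadjusted p under 0.05) and from 21 to 0 for HF vs NF (992 at that p). The genes described next are the highest of a ranking in which no interaction passed edgeR's test, and their values are given as a description.

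The ranked genes had a shape in common. Of the 346 genes with a negative interaction, 275 had positive estimates for both single stresses, and their median log2 differences were 0.58 for HM vs NM, 1.20 for NF vs NM and 0.68 for HF vs NM. Of the 152 genes with a positive interaction, 115 had negative estimates for both single stresses, with medians of −0.55 for HM vs NM, −0.45 for NF vs NM and −0.02 for HF vs NM. The NM samples enter both the ranking and these single responses, so this shape is partly fixed by the choice of genes. Without HM replicate 1, 342 of the 346 negative genes kept their sign and 165 kept an unadjusted p under 0.05. All 152 positive genes kept their sign, and 91 kept that p. The samples left also made the ranking, so the kept signs were largely fixed by the choice of genes.

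The fit of the combined stress to the sum of the single responses was described over the 11692 well-expressed genes, those with a mean of at least 10 CPM. Of these, 1368 were called up and 344 down by flg22 in normoxia, so most had no detected flg22 response, and the scaling of the libraries centres the median near 0. The median interaction over these genes was −0.01 on the log2 scale, and the middle range between quartiles ran from −0.16 to 0.12. The HF level lay within 1.5-fold of the log2 sum in 93.7% of them, and the interaction within 1 of 0 in 97.4%. Over the 474 of these genes on a published list of genes changed by 2 h of hypoxia in other seedlings, 62.5% lay within 1.5-fold of the sum and the median was −0.13, with 80 genes below −1 and 17 above 1. Computed within each replicate number from log2 CPM, the medians were −0.02, −0.02 and −0.07, and 85.7%, 83.9% and 81.7% of the genes lay within 1.5-fold of the sum. The distribution had a longer lower tail, with 264 genes below −1 and 36 above 1. That tail depended on HM replicate 1: without it 49 genes lay below −1 and 104 above 1. Without HM replicate 2 the counts were 425 and 41, and without NF replicate 2 they were 175 and 66. Over leaving out each single sample in turn, the number above 1 ran from 23 to 104.

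The sum can also be taken on the CPM scale, as HM + NF − NM, in place of the log2 scale. On that scale 96.2% of the well-expressed genes had an HF level within 1.5-fold of the sum, with a median log2 ratio of −0.004, and the tails turned round, with 34 genes below −1 and 83 above 1. Of the 346 negative genes, 16 had a mean HF level above the CPM sum, and the other 330 were below the sum on both scales. Over all tested genes, mean HF was below the CPM sum in 10065 of 20074. The negative genes were chosen from the same samples for a low HF level, so the 330 are partly fixed by that choice. All 152 positive genes were above the sum on both scales, which the choice of genes largely fixes. Where both single responses are negative, as estimated for 115 of the 152, the CPM sum lies below the log2 sum. A gene chosen for HF above the log2 sum then lies above the CPM sum too, so this is no second check.

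The flg22 response in hypoxia (HF vs HM) followed the flg22 response in normoxia (NF vs NM), a pair of comparisons that share no sample. Across the 11692 genes, which are not independent replicates and share the same libraries, Pearson's r was 0.938 and the least-squares slope was 0.75, or 0.85 with the axes exchanged. A slope under 1 means that genes with a large flg22 response in normoxia had, on average, a smaller one in hypoxia. The slope rested on HM replicate 1, since it was 1.01 without that sample, or 1.13 with the axes exchanged, with r 0.943. Leaving out each other sample in turn gave slopes between 0.64 and 0.83. Within replicate numbers, from log2 CPM, the slopes were 0.48, 0.87 and 0.84, or 0.90, 1.06 and 1.21 with the axes exchanged. In replicate numbers 2 and 3 these slopes lie on either side of 1. They do not place the flg22 response in hypoxia above or below that in normoxia there.

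**Figure D2:**
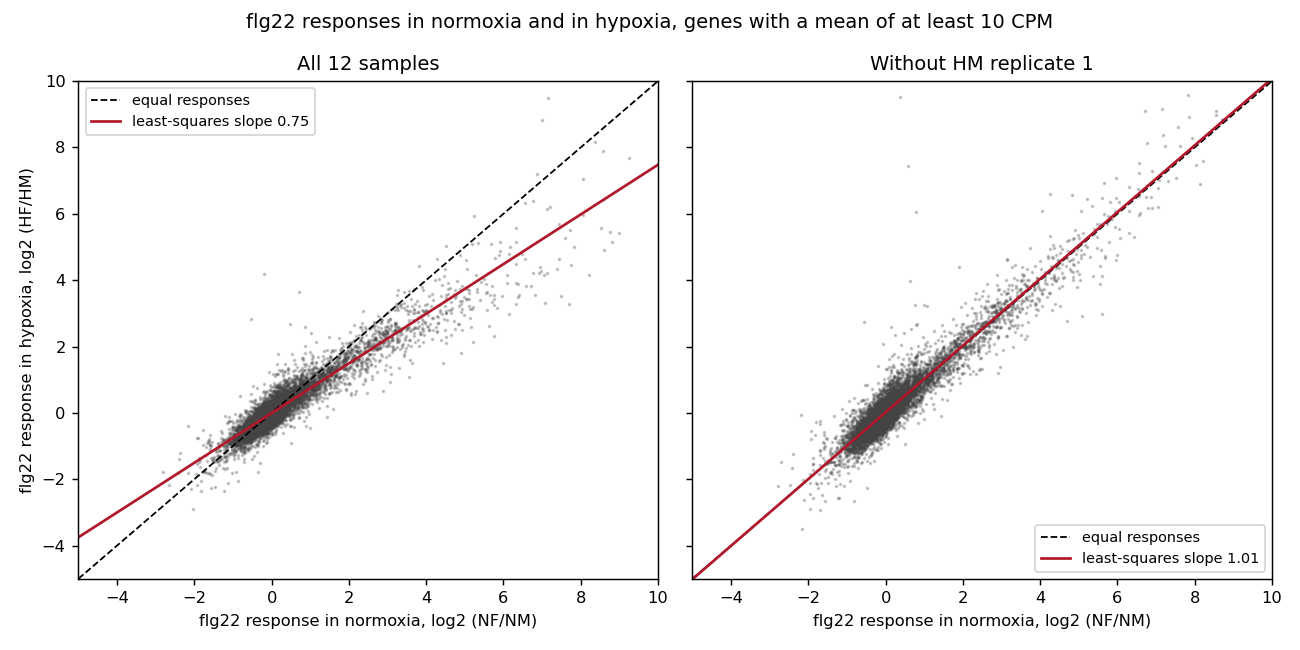
Each point is 1 of 11692 well-expressed genes, with its flg22 response in normoxia on the x axis and in hypoxia on the y axis (log2 differences), the dashed line marking equal responses and the solid line the least-squares slope. With all 12 samples the slope was 0.75, and without HM replicate 1 it was 1.01.

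The hypoxia response with flg22 (HF vs NF) followed the hypoxia response without flg22 (HM vs NM) less closely, with r 0.640, a slope of 0.55 and 1.34 with the axes exchanged. These slopes lie on either side of 1, so the measurement does not place the hypoxia response with flg22 above or below that without it. The slope ran from 0.37 without HF replicate 2 to 0.69 without HF replicate 3. Within replicate numbers the slopes were 0.56, 0.69 and 0.14. Over the 474 genes of the 2 h hypoxia list, r was 0.743 and the slope 0.72.

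Among the genes with a negative interaction, AT3G28580 ranked first. It encodes a nucleoside triphosphate hydrolase with a P-loop. Its level was 0.340, 0.0929 and 0.172 CPM in NM and 1.76, 1.05 and 0.810 CPM in HM. It was 16.8, 6.08 and 13.2 CPM in NF and 5.39, 2.84 and 7.44 CPM in HF. The groups followed the order NM, HM, HF, NF, with HF and NF overlapping, and HF was below NF at each replicate number. The interaction was −3.75 ± 0.54 (SE) with an unadjusted p of 5.41e-05 and an adjusted p of 1 by edgeR's quasi-likelihood test, while DESeq2 gave an adjusted p of 0.0001033. It was −3.66 without HM replicate 1. The mean HF level was 0.401 times the CPM sum and 0.0725 times the product that adding on the log2 scale implies, though the NM level in that product comes from 15 reads in all.

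OM66, also known as BCS1, encodes an AAA ATPase of the outer mitochondrial membrane that stress induces. Its level was 7.09, 1.44 and 1.55 CPM in NM, 57.5, 6.08 and 12.4 CPM in HM, 186, 68.5 and 217 CPM in NF and 99.1, 43.8 and 133 CPM in HF. Each stress alone was higher than NM at every replicate number, and HF was again below NF at every number although the groups overlap. The interaction was −3.46 ± 0.73 (unadjusted p 0.000871, adjusted p 1 by edgeR), and −2.64 without HM replicate 1. DESeq2 with the replicate number gave an adjusted p of 0.00833.

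A second shape was a rise with flg22 in normoxia and none detected in hypoxia. AT1G21590 encodes a protein kinase with an adenine nucleotide alpha hydrolase-like domain. Its level was 26.2, 19.5 and 26.5 CPM in NM and 54.6, 34.9 and 52.7 CPM in NF, groups that do not overlap. In hypoxia it was 24.5, 14.9 and 17.8 CPM without flg22 and 21.5, 12.3 and 22.3 CPM with it, and these groups overlap. The flg22 response was 0.96 in normoxia (adjusted p 0.0026 by edgeR) and −0.05 in hypoxia (adjusted p 0.86), and HF vs NF was −1.36 (adjusted p 0.024). The interaction was −1.01 ± 0.19 (unadjusted p 0.000426, adjusted p 1 by edgeR) and −0.91 without HM replicate 1, and DESeq2 gave an adjusted p of 0.0398. The uncharacterized gene AT4G35940 had the same shape, with 10.3, 15.2 and 12.6 CPM in NM, 18.4, 27.5 and 27.6 in NF, 8.24, 10.5 and 9.85 in HM and 7.89, 9.98 and 12.0 in HF. All 3 NF samples were above all other samples. Its interaction was −0.89 ± 0.19 (edgeR, adjusted p 1), and it overlaps a gene on the opposite strand, so without a stated use of strand its reads are uncertain.

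AT1G72900, which encodes a Toll-interleukin receptor (TIR) domain protein of the kind found in immune receptors, had higher levels in HM, NF and HF than in NM. It had 13.5, 23.1 and 33.6 CPM in NM, 118, 54.2 and 98.9 in HM, 122, 154 and 236 in NF and 122, 148 and 161 in HF. The HF samples lay within the range of the NF samples and above all HM samples, and the NM samples were below all others. NF vs NM was 2.88 (adjusted p 0.0016 by edgeR), while HM vs NM was 2.02 and did not pass (adjusted p 0.065). Its mean HF level was 0.605 times the CPM sum, and its interaction was −2.22 ± 0.45 (edgeR, adjusted p 1, DESeq2 adjusted p 0.0123), or −1.71 without HM replicate 1. A further TIR domain gene, AT2G20142, had an interaction of −2.80 ± 0.65, or −2.11 without HM replicate 1. It averaged 0.579 CPM in NM and 13.9 CPM in NF, against 2.37 and 8.12 CPM in the HM and HF samples.

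The other genes of the first 12 negative ones were ERF13, AT5G28610, AT5G24210, BAP2, AT2G07695 and PES2. ERF13, an ethylene-responsive element binding factor, had a direction that depended on the scale. Its mean level was 0.109 CPM in NM, from 8 reads in all. It was 6.11 ± 2.31 CPM in NF, and 2.1 ± 1.8 CPM in HM rose to 9.84 ± 5.08 CPM in HF (SD, n = 3; HF vs HM adjusted p 0.012 by edgeR). The log2 interaction was −3.54 ± 0.72, but mean HF was above the CPM sum of 8.10. HF minus that sum was 5.81, 0.199 and −0.786 CPM at replicate numbers 1, 2 and 3. BAP2, whose product binds the membrane protein BON1 and restrains cell death, had 2 reads in all of NM and mean levels of 6.93 CPM in NF and 4.28 CPM in HF. Its fitted interaction rests on those 2 reads, so no fold is given. AT5G28610, annotated as similar to an RNA helicase, had −3.08 ± 0.64 (edgeR adjusted p 1, DESeq2 adjusted p 0.0181), or −2.15 without HM replicate 1. AT5G24210 encodes an alpha/beta-hydrolase, with −1.55 ± 0.33. PES2, annotated by family as esterase/lipase/thioesterase, had −1.07 ± 0.25 and an overlapping gene on the opposite strand. AT2G07695 encodes a cytochrome c oxidase subunit II-like protein and lies where chromosome 2 carries a copy of mitochondrial DNA, so reads may be shared with the mitochondrial gene and its value of −1.63 ± 0.39 is uncertain. AT3G43250, 1 of the 7 genes called by DESeq2 but outside the ranking rule, had no read in any NM sample, 1.29, 0.201 and 0.180 CPM in HM, 7.08, 12.3 and 13.3 in NF and 6.04, 8.11 and 10.8 in HF, and it was chosen after its values were seen.

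**Figure D3:**
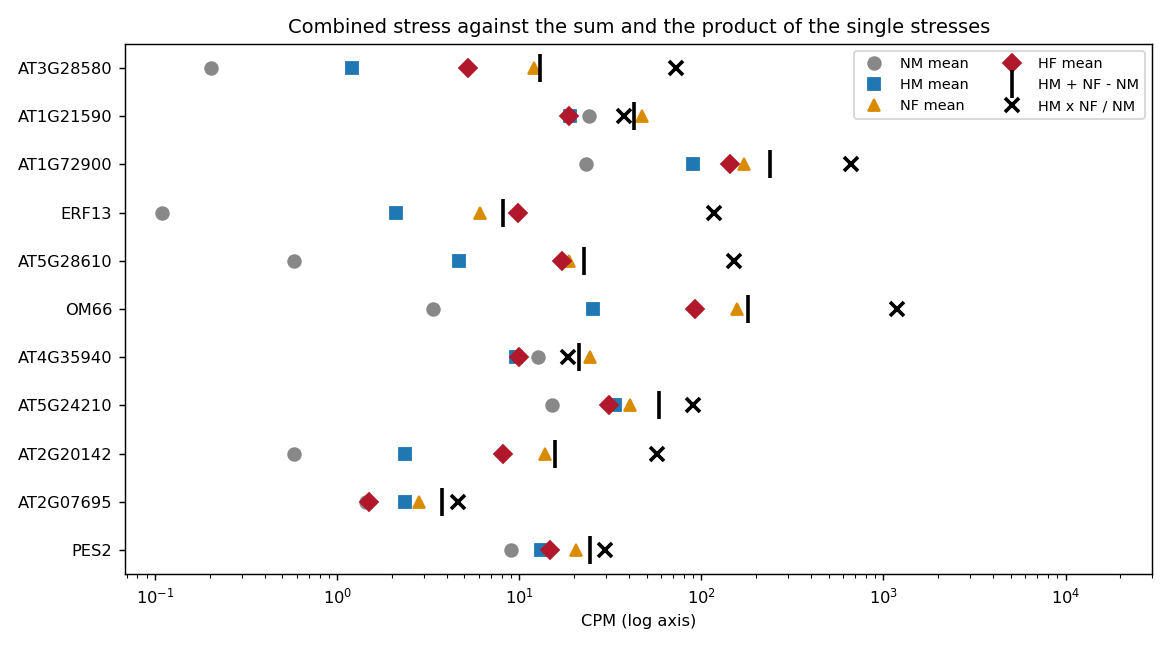
Mean CPM of each group (log axis, n = 3) for 11 of the first 12 genes with a negative interaction, with the sum HM + NF − NM as a bar and the product HM × NF / NM as a cross, and BAP2 left out because its NM level rests on 2 reads. HF lies below the product in all 11 genes, which their choice by a negative log2 interaction fixes. It lies below the sum in 10, ERF13 (9.84 against 8.10 CPM) being the exception.

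The 250 bases before the RefSeq gene start are shown for AT3G28580 and BBX19, the first genes of the negative and of the positive ranking. Sequences are from RefSeq assembly TAIR10.1, 5′ to 3′ on the strand of the gene, with the W-box core TTGAC on either strand (GTCAA on the reverse) in capitals. W-boxes are elements that WRKY factors bind. They are chr3:10715347-10715596 and chr4:18160653-18160902, both on the plus strand, in the order printed.
AT3G28580: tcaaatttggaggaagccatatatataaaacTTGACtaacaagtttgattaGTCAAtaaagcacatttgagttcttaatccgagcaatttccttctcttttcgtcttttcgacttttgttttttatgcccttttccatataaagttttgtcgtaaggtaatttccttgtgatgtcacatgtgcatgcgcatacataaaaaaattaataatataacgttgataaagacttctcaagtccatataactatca
BBX19: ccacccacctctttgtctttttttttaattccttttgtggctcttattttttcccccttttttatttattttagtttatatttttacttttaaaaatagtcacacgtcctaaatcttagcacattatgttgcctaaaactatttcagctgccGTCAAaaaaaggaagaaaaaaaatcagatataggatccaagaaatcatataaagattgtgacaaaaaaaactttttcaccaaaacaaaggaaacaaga

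The core TTGAC was present on at least 1 strand in 8 of the 12 negative genes and 2 of the 12 positive genes, against 45.6% of the 20073 promoters of tested genes that could be read (9152 promoters). At least 2 copies were present in 4 of the 12 negative genes, against 14.6% of all promoters. AT3G28580 holds 2 copies and BBX19 holds 1. The G-box core CACGTG, which reads the same on both strands, was present in 0 of the 12 negative and 2 of the 12 positive genes, against 7.27% of all promoters. These matches are a description of the letters and do not mark a site.

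Genes with a positive interaction mostly had lower estimates for each single stress. Over the first 12 of them, HF vs NM ranged from −1.61 (AT2G22200) to 2.46 (AT4G27810), so they did not share a level after both stresses. The value of AT4G27810 rests on 35 reads in all of NM. BBX19, a B-box zinc finger protein of the family that acts in light and flowering control, had 2.49, 4.37 and 4.92 CPM in NM, 1.63, 2.91 and 2.47 in HM, 1.52, 2.89 and 2.76 in NF and 2.85, 3.97 and 3.94 in HF. HF was above HM and above NF at every replicate number, although the groups overlap, with replicate 1 the lowest in every group. The interaction was 1.35 ± 0.30 (unadjusted p 0.00142, adjusted p 1 by edgeR) and ran from 1.23 to 1.52 when samples were left out. Neither single response passed the test (HM vs NM −0.73, adjusted p 0.25, and NF vs NM −0.71, adjusted p 0.06, by edgeR).

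AT3G10910, a RING/U-box protein, had 8.41, 9.94 and 9.01 CPM in NM, 7.94, 6.98 and 9.13 in HM, 4.44, 5.93 and 4.67 in NF and 8.74, 14.4 and 8.30 in HF. All 3 NF samples were below all others, and NF vs NM was −0.87 (adjusted p 0.025 by edgeR). The interaction was 1.22 ± 0.30 (adjusted p 1 by edgeR). In hypoxia, HF vs HM was 0.35 (adjusted p 0.31).

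GUN4, a regulator of chlorophyll synthesis, had 94.3, 130 and 95.7 CPM in NM, 51.5, 122 and 65.5 in HM, 34.9, 67.0 and 54.4 in NF and 49.7, 75.9 and 66.4 in HF. NF did not overlap NM, and NF vs NM was −1.07 (adjusted p 0.0035 by edgeR). The interaction was 0.82 ± 0.24 (adjusted p 1 by edgeR), and GUN4 overlaps a gene on the opposite strand. COL2, a CONSTANS-like B-box protein, averaged 30.2 ± 21.8 CPM in NM and 7.72 ± 4.78 CPM in NF (SD, n = 3), and NF vs NM was −1.94 (adjusted p 0.0027 by edgeR). Its hypoxic samples averaged 19.8 ± 11.6 CPM without flg22 and 10.4 ± 3.88 CPM with it (SD, n = 3). Its interaction was 1.17 ± 0.39. COL2 was named through its list and is not among the first 12 positive genes. Besides BBX19, AT3G10910 and GUN4, these were AT2G22200, an AP2-type factor, AT2G44230, AT5G01910, AT1G26761, AT1G53250, AT5G02280, AT2G29260, AT4G27810 and GDU4, with interactions from 0.71 to 3.51. The highest value, that of AT4G27810, has an SE of 1.06 and rests on 35 reads in all of NM and 12 in its lowest group. Apart from AT4G27810, which the hypoxia estimate placed at 0.41, each had a negative estimate for both single stresses. GDU4, a member of the glutamine dumper family of amino acid export regulators, had 1.94 ± 0.59. For GDU4, AT2G22200 and AT5G01910 the sum on the CPM scale was negative, so no level could have met it. AT1G53250, AT5G02280 and AT2G29260 also overlap genes on the opposite strand.

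**Figure D4:**
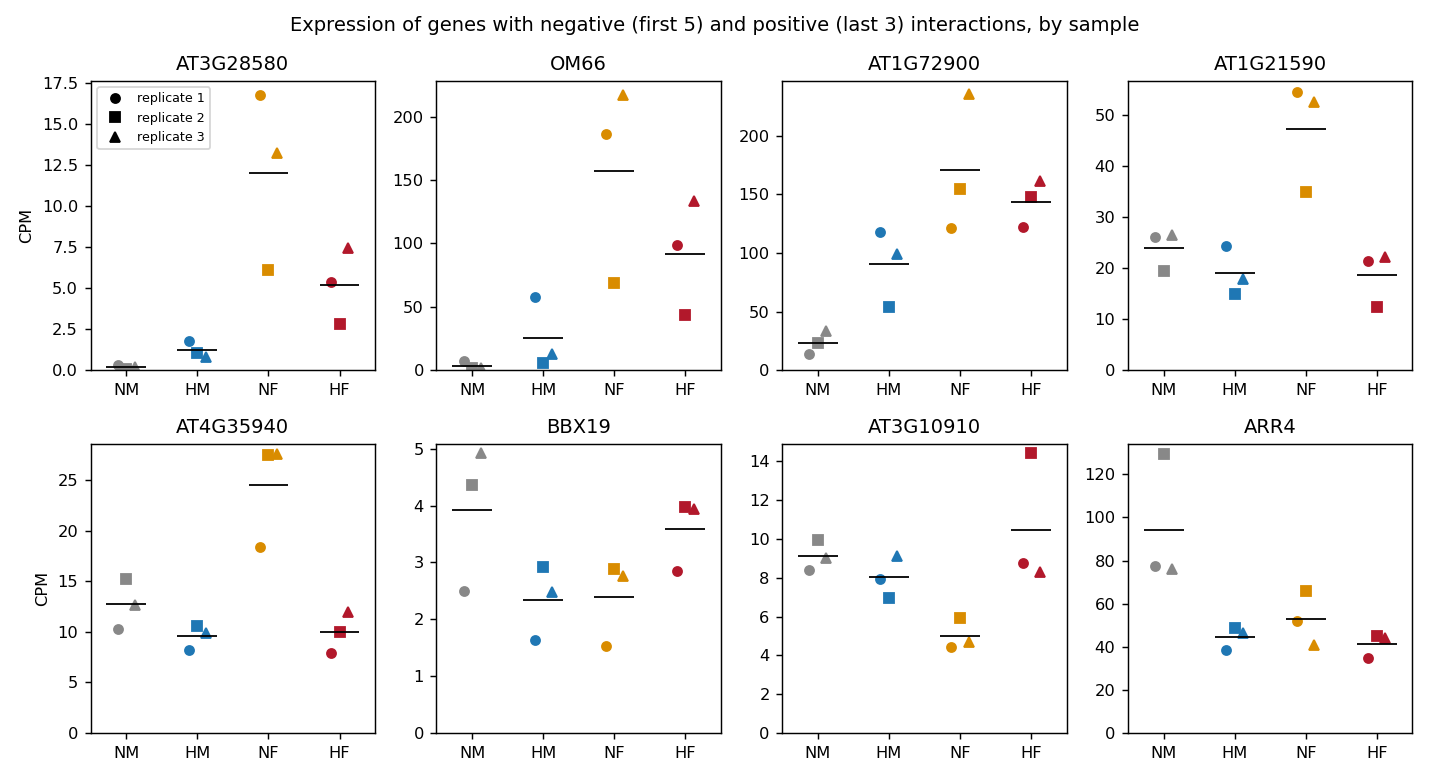
CPM in each sample by group for 5 genes with a negative interaction and 3 with a positive one, with the replicate number as the point shape, the line at the group mean, and every y axis starting at 0. In AT1G21590 the NF samples (34.9 to 54.6 CPM) lie above all others, while in BBX19 the HF samples (2.85 to 3.97 CPM) lie within the NM range (2.49 to 4.92 CPM).

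Defence gene lists other than the jasmonate pathway had mostly negative interactions on the log2 scale with all 12 samples. Over all tested genes the median was −0.01, with 10310 of 20074 negative. Fewer members of these defence lists had a mean HF level below the CPM sum, which over all tested genes held for 10065. All 21 pattern receptors and co-receptors were negative, with a median of −0.44 and 2 at an unadjusted p under 0.05 (1.72% of all genes tested). On the CPM scale 16 of the 21 had a mean HF level below the sum. Of these 21 genes, 15 were called up by flg22 in normoxia (9.08% of all genes tested) and 12 in hypoxia (7.05%). Without HM replicate 1 the median was 0.03, and 10 of the 21 were negative. The medians within replicate numbers were −0.67, −0.01 and −0.29.

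EFR, the receptor for bacterial elongation factor EF-Tu, had 5.92, 8.73 and 14.9 CPM in NM, 8.76, 6.28 and 17.3 in HM, 22.0, 28.5 and 37.6 in NF and 11.7, 19.2 and 23.3 in HF. The NF samples were above all NM and HM samples, and HF was below NF at every replicate number. The interaction was −0.86 ± 0.32 (unadjusted p 0.024, adjusted p 1 by edgeR), and −0.70 without HM replicate 1. FLS2, the flg22 receptor, had 63.0, 38.6 and 49.5 CPM in NM, 39.2, 24.1 and 40.1 in HM, 82.5, 99.0 and 79.3 in NF and 34.6, 46.4 and 47.4 in HF. Its NF samples were above all others and its HF samples lay within the NM and HM range, with an interaction of −0.48 ± 0.33 (unadjusted p 0.18). RLP30, a receptor-like protein of fungal pattern recognition, had −0.82 ± 0.35, and −0.48 without HM replicate 1.

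Of 18 early flg22 marker genes, 15 were negative, with a median of −1.09 and 3 at an unadjusted p under 0.05 (1.72% of all genes tested). On the CPM scale 10 of the 18 had a mean HF level below the sum. Of these 18 genes, 17 were called up by flg22 in normoxia (9.08% of all genes tested) and 14 in hypoxia (7.05%). Without HM replicate 1 the median was −0.24, with 11 negative. CBP60G, a calmodulin-binding activator of salicylic acid synthesis, had 5.06, 6.18 and 11.8 CPM in NM, 21.8, 6.68 and 21.3 in HM, 65.4, 102 and 179 in NF and 79.0, 82.7 and 118 in HF. HF and NF overlap, and the interaction was −1.38 ± 0.51, or −0.75 without HM replicate 1. WRKY33, a regulator of camalexin synthesis, had 647, 60.8 and 165 CPM in HM against 26.3 to 60.03 in NM. It averaged 1092 ± 573 CPM in NF and 1554 ± 167 CPM in HF (SD, n = 3). Its interaction was −1.96 ± 0.93 with all samples and −0.53 without HM replicate 1, but its mean HF level was 1.16 times the CPM sum. HF minus that sum was 386, 737 and −476 CPM at replicate numbers 1, 2 and 3. PROPEP2, precursor of a danger peptide, had −2.05 ± 0.83, and −1.37 without HM replicate 1, with 9 reads in all of NM. FRK1, a receptor-like kinase often used as an flg22 marker, was highest in replicate 3 of every group. It had 0.377, 0.790 and 38.2 CPM in NM, 2.53, 0.351 and 46.4 in HM, 2.26, 19.9 and 65.5 in NF and 2.25, 11.6 and 17.7 in HF. The interaction of FRK1 was −1.59 ± 1.38 (unadjusted p 0.28 by edgeR), with 0.22 within replicate number 2 and −1.03 without HM replicate 1.

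Other defence lists were also mostly negative on the log2 scale with all 12 samples, apart from the jasmonate pathway, with 14 of 21 genes positive. The WRKY, ERF and DREB, and glutathione S-transferase families are given with later lists, at medians of −0.13, −0.07 and −0.10. Mean HF was below the CPM sum in 6 of 9 salicylic acid and 9 of 15 indole glucosinolate and camalexin genes. It was below in 27 of 33 cysteine-rich receptor kinases and 19 of 33 calmodulin-like and calcium-dependent kinase genes. For MAP kinase cascade genes it was 6 of 14, for mitochondrial stress genes 5 of 10 and for ZAT genes 1 of 3. Of 9 salicylic acid pathway genes 8 were negative (median −0.62, 0.04 without HM replicate 1), and SAG101, a partner of EDS1, had −0.70 ± 0.38. Of 15 indole glucosinolate and camalexin genes 11 were negative (median −0.70, −0.35 without it). In this list MYB51, a factor that activates indole glucosinolate genes, had 145, 17.97 and 37.4 CPM in HM against 219 to 293 in HF, and −2.39 ± 0.81, or −1.10 without HM replicate 1. PAD3, the last enzyme of camalexin synthesis, had −2.94 ± 1.28, 0.29 within replicate number 3, and −0.37 without HM replicate 1. Of 33 cysteine-rich receptor kinases 29 were negative (median −0.52, −0.20 without it). CRK39 had −4.28 ± 1.67, with 5 reads in all of NM, and 0.84 within replicate number 3. It turned to 0.33 without HM replicate 1, and CRK5 had −1.89 ± 0.81. Of 33 calmodulin-like and calcium-dependent kinase genes 24 were negative (median −0.27, −0.07 without it), with CPK5, a kinase of defence signalling, at −0.54 ± 0.19 and CML41 at −1.42 ± 0.62. Of 14 MAP kinase cascade genes 10 were negative (median −0.19, 0.11 without it), with MKK4 at −0.93 ± 0.45 (−0.38 without it) and MEKK1 at −0.56 ± 0.33 (−0.16 without it). Of 10 mitochondrial stress genes 7 were negative (median −0.41, −0.15 without it), among them DIC2, a mitochondrial dicarboxylate carrier, at −2.50 ± 1.14. DIC2 was at −0.93 without HM replicate 1, and at 0.64 within replicate number 2, and its mean HF level was 1.23 times the CPM sum. HF minus that sum was 179, 318 and −77.7 CPM at replicate numbers 1, 2 and 3. The ZAT list held 3 zinc finger genes, all negative, with ZAT7 at −2.77 ± 0.97 and ZAT11 at −2.32 ± 1.34, the latter at 0.81 without HM replicate 1.

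**Figure D5:**
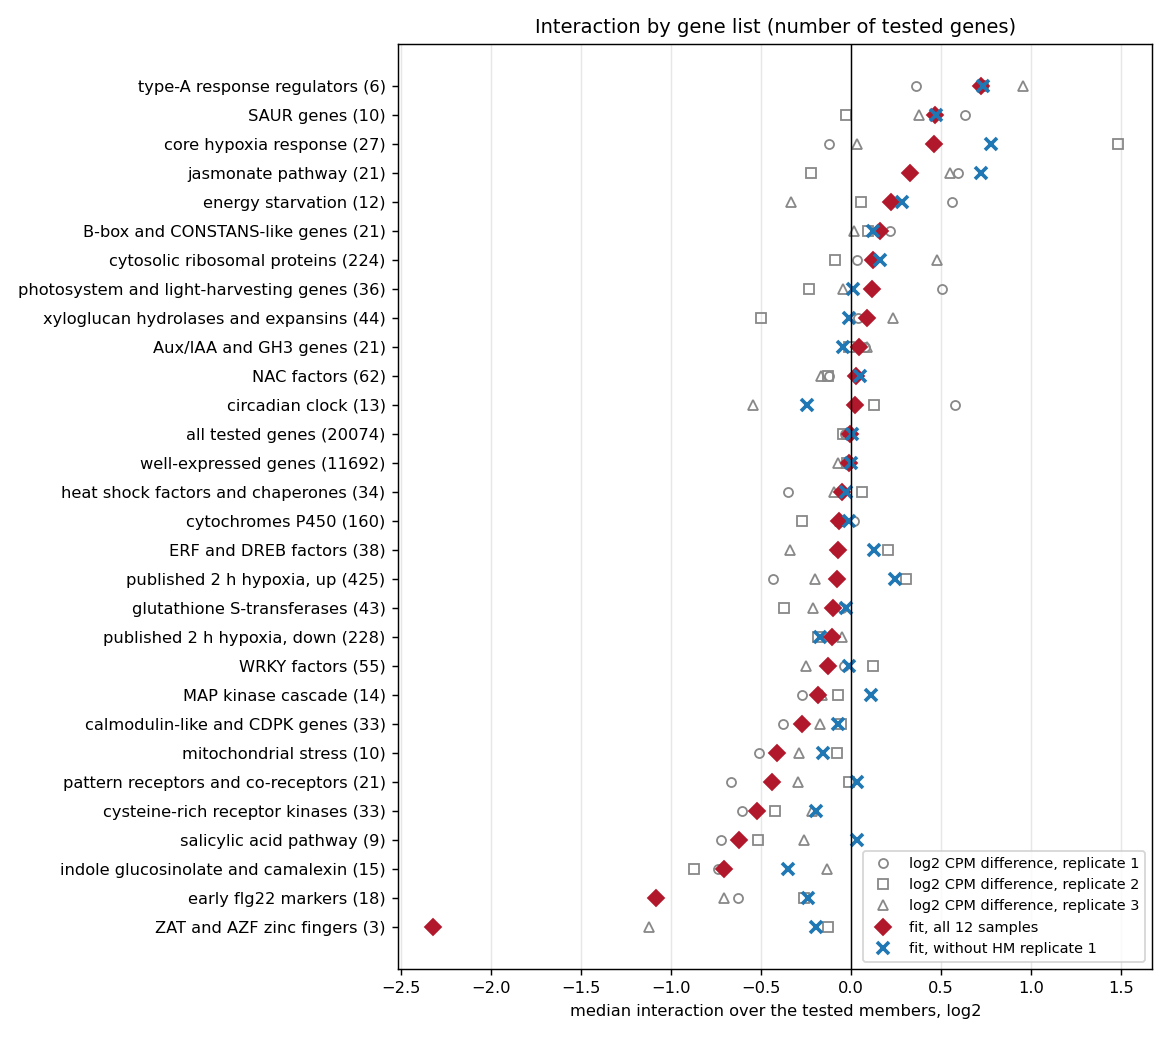
Median interaction (log2) over the tested members of each gene list, with diamonds for the fit to all 12 samples, crosses for the fit without HM replicate 1, and open symbols for log2 CPM differences within each replicate number. The pattern receptor median moves from −0.44 to 0.03 without HM replicate 1, whereas that of the type-A response regulators stays at 0.72 and 0.73.

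Of 27 core hypoxia genes, 19 had a positive interaction on the log2 scale, with a median of 0.46. Only 1 reached an unadjusted p under 0.05, in the negative direction (1.72% of all genes tested). On the CPM scale 1 of the 27 had a mean HF level below the sum. Of the 27 genes, 5 were called up by hypoxia without flg22 (0.0598% of all genes tested) and the median HM vs NM was 3.02. The medians within replicate numbers were −0.12, 1.48 and 0.03, and over leaving out samples the median ran from −0.23 to 0.81 (0.78 without HM replicate 1), so its direction was not stable. The median includes HUP9, a gene with no read in NF, whose fitted value depends on the prior count. ADH1, alcohol dehydrogenase, had 9.05, 7.95 and 15.3 CPM in NM, 177, 35.1 and 107 in HM, 7.49, 12.4 and 11.2 in NF and 184, 482 and 113 in HF. HF replicate 2 was the highest sample and HM replicate 2 the lowest of the HM samples, and HF overlaps HM. The interaction was 1.31 ± 0.93 (unadjusted p 0.19) and 2.13 without HM replicate 1. LBD41 had 21.6, 20.8 and 12.7 CPM in NM, 751, 306 and 690 in HM, 37.9, 155 and 52.7 in NF and 1034, 1932 and 735 in HF. It was called up by each stress alone (HM vs NM 5.12, adjusted p 0.036, and NF vs NM 2.03, adjusted p 0.037, by edgeR), and the interaction was −1.16 ± 0.72.

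The sign for LBD41 depended on the scale: its mean HF level was 1.91 times the CPM sum and 0.475 times the product. ERF73, a group VII ERF induced by hypoxia, had an interaction of −0.12 ± 0.42, or 0.22 without HM replicate 1, with HM vs NM 2.43 (adjusted p 0.043) and HF vs NF 2.31 (adjusted p 0.032) by edgeR. These hypoxia calls rest on the fit with the replicate number. HUP40, a core hypoxia gene, had −2.46 ± 0.96, 0.002 within replicate number 2, and −1.38 without HM replicate 1. RBOHD, the oxidase of the flg22 burst, which is also a core hypoxia gene, had 793, 60.8 and 125 CPM in HM, and its interaction of −1.56 ± 0.89 was −0.19 without HM replicate 1. The mean HF level was above the CPM sum for ERF73 (1.24 times), HUP40 (1.31 times) and RBOHD (1.26 times). At replicate numbers 1, 2 and 3, HF minus that sum was 2.71, 72.3 and −17.1 CPM for ERF73. It was −20.5, 155 and −5.67 CPM for HUP40 and 180, 540 and 88.7 CPM for RBOHD. For ERF73 and HUP40 the excess thus rested mostly on replicate number 2.

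The published list of genes changed by 2 h of hypoxia, which was made from other seedlings, gave no single direction. Of 425 tested genes listed as induced, 228 were negative with a median of −0.08, and the median was 0.24 without HM replicate 1. At an unadjusted p under 0.05 were 9 positive and 35 negative genes (0.757% and 1.72% of all genes tested). On the CPM scale 121 of the 425 had a mean HF level below the sum. Of 228 tested genes listed as repressed, 142 were negative with a median of −0.11, or −0.17 without HM replicate 1. GORK, an outward potassium channel, had −0.83 ± 0.27 and AGP17, an arabinogalactan protein, −1.11 ± 0.35. AGP17 had 30.9, 58.7 and 58.1 CPM in HM, 13.7, 23.6 and 14.4 in NM, 6.46, 6.29 and 8.71 in NF and 9.69, 9.75 and 8.59 in HF. The HM samples were above all others, and both flg22-treated groups were below NM. HM vs NM did not pass the test (1.503, adjusted p 0.065), while flg22 gave −1.24 in normoxia (adjusted p 0.0098, edgeR) and −2.35 in hypoxia (adjusted p 0.0035).

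Type-A response regulators, which are induced by cytokinin and feed back on its signalling, were the list with the highest median (0.72, with 5 of 6 positive). Of the 6, 3 were positive at an unadjusted p under 0.05 (0.757% of all genes tested). The median was 0.73 without HM replicate 1 and between 0.55 and 0.99 over all samples left out. ARR4 had 77.5, 130 and 76.1 CPM in NM, 38.7, 48.5 and 46.1 in HM, 52.1, 65.9 and 40.9 in NF and 34.7, 45.1 and 44.1 in HF. All NM samples were above all others, and HF overlaps HM (HF vs HM −0.11, adjusted p 0.71 by edgeR). Its interaction was 0.70 ± 0.24, with NF vs NM −0.81 (adjusted p 0.011 by edgeR). ARR6 had 0.74 ± 0.28, and averaged 11.6 CPM in NM, 5.48 CPM in NF, and 5.79 and 4.65 CPM in HM and HF.

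Of 21 jasmonate pathway genes, 14 were positive (median 0.33, 0.72 without HM replicate 1). JAZ3, a repressor of jasmonate signalling, had 42.6, 63.0 and 47.7 CPM in NM, 88.4, 57.8 and 57.9 in HM, 31.3, 36.0 and 37.3 in NF and 118, 134 and 60.8 in HF. The NF samples were below all others, and the interaction was 1.11 ± 0.38 (unadjusted p 0.015). LOX4, a lipoxygenase of jasmonate synthesis, went the other way with −3.04 ± 1.27, and −0.86 without HM replicate 1, where it had 264 CPM against 4.32 and 24.3 in the other HM samples.

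Growth, light and housekeeping lists, and the transcription factor and enzyme families, mostly had medians nearer to that of all genes. Of 224 cytosolic ribosomal protein genes 170 were positive with a median of 0.12, and the medians within replicate numbers were 0.03, −0.09 and 0.48. Of 36 photosystem and light-harvesting genes 29 were positive with a median of 0.12, or 0.01 without HM replicate 1. Of 12 energy starvation genes 10 were positive (median 0.22), but the medians within replicate numbers were 0.56, 0.06 and −0.33, and over samples left out the median ran from −0.22 to 0.46. In this list TPS5 and TPS11, trehalose phosphate synthase family genes, were at 0.43 ± 0.30 and 0.53 ± 0.38. The median of 13 circadian clock genes was 0.02, with medians of 0.58, 0.13 and −0.54 within replicate numbers. The medians were 0.16 for 21 B-box and CONSTANS-like genes, 0.04 for 21 Aux/IAA and GH3 genes, with IAA14 at 0.88 ± 0.30, and −0.07 for 160 cytochromes P450, among which CYP707A3, an abscisic acid catabolic enzyme, had −2.13 ± 0.70. They were 0.47 for 10 SAUR genes (from −0.22 to 1.33 over samples left out), 0.03 for 62 NAC factors, −0.13 for 55 WRKY factors, −0.07 for 38 ERF and DREB factors, −0.05 for 34 heat shock factors and chaperones, −0.10 for 43 glutathione S-transferases and 0.09 for 44 xyloglucan hydrolases and expansins. Without HM replicate 1 the medians were −0.24 for the clock genes, −0.04 for Aux/IAA and GH3 genes, −0.01 for cytochromes P450, 0.05 for NAC, −0.01 for WRKY and 0.13 for ERF and DREB factors, −0.03 for heat shock genes, −0.03 for glutathione S-transferases and −0.01 for xyloglucan hydrolases and expansins. In these lists RAP2.9 had −1.19 ± 0.33, HSFB2A, a heat shock factor of the repressor class, −1.05 ± 0.31, and XTH18, a cell wall enzyme, −2.47 ± 0.97, the last at −1.25 without HM replicate 1. The mean HF level of XTH18 was 1.39 times the CPM sum.

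Single members of these families differed in shape. CYP707A3 had 8.98, 1.77 and 4.05 CPM in NM, 146, 15.6 and 70.0 in HM, 36.5, 30.7 and 34.0 in NF and 139, 104 and 99.4 in HF. Its HF samples overlap HM and lie above all NF samples, and its mean HF level was 1.08 times the CPM sum. HF minus that sum was −34.5, 59.15 and −0.54 CPM at replicate numbers 1, 2 and 3. HSFB2A had 4.45, 12.96 and 9.23 CPM in NM, 22.8, 27.6 and 21.4 in HM, 18.8, 34.5 and 29.1 in NF and 32.2, 45.9 and 34.03 in HF, with NM below all other samples. WRKY46, a factor of basal defence, had 14.3, 0.201 and 2.92 CPM in HM, and its interaction of −2.56 ± 1.14 was −0.77 without HM replicate 1. Its mean HF level was 1.22 times the CPM sum. NAC062, a membrane-bound NAC factor, had −1.10 ± 0.47, 0.005 within replicate number 2, and −0.48 without HM replicate 1. NAC016 had −1.14 ± 0.47, and −1.06 without HM replicate 1.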

How the data were processed

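RNA-seq was done on polyA RNA from 12 samples of whole wild-type Col-0 seedlings. Per the labels and the study's methods, read filtering (SOAPnuke), alignment to TAIR10 (HISAT) and the group comparison (DESeq2) were done by the authors. The authors deposited an expected count (an estimated count, not normalized) per gene and sample, with 2.3% of values not whole. These were rounded to whole numbers. The counting tool, annotation and use of strand are not given in the sources used here. The table's 4 columns of group averages were not used. All 23396 genes matched RefSeq TAIR10.1.

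edgeR 4.0.16 (R 4.3.3) was used with TMM factors, its expression filter with a minimum count of 10 and a quasi-likelihood test of (HF − HM) − (NF − NM), two-sided, with Benjamini-Hochberg adjustment over 20074 genes. Genes were called at an adjusted p under 0.05 and a change of more than 1.5-fold. Group and replicate number (as a block) were terms of the model. The replicate numbers did not pair all samples: deviations of the 18 same-numbered pairs correlated at 0.399 on average, but those of HF replicate 3 ran from −0.111 to −0.00892, so fits without the block were also made. Each sample is a separate set of seedlings per the study's methods. SE is that of the log2 difference. CPM values use the TMM-scaled totals, and log2 CPM a prior count of 2. With count totals of 21307650 to 21554050, levels near 0 rest on few reads.

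Genes named were the first 12 in each direction by interaction p, with a mean of at least 1 CPM and 1 sign in all 3 replicate numbers, the 2 members of each of 30 lists with the smallest p, and FLS2, EFR, LBD41, ERF73, ADH1, FRK1 and WRKY33. Further genes are named as examples. The contrast, members and lists were chosen with earlier results of these data known. Families were taken by RefSeq symbol, without 6 loci whose product names another family. Alternatives were DESeq2 1.42.0, other size factors, other filters and leaving out samples. The scripts were tested on simulated data.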

Additional observations from a re-analysis of the deposited data

Results flagged for a closer look

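For 12 of the named genes the flg22 response within replicate numbers had 1 sign in all 3 normoxic pairs and the opposite sign in all 3 hypoxic pairs. The difference itself was tested as the interaction and passed for none of them by edgeR's quasi-likelihood test (adjusted p 1). The response was negative in normoxia and positive in hypoxia for BBX19 (interaction 1.353), AT5G01910 (1.773), AT1G53250 (0.7129), AT5G02280 (0.7453), AT2G29260 (2.048), AT4G27810 (3.514), JAZ3 (1.11) and CCA1, a factor of the circadian clock (0.4794). It was the reverse for AT2G07695 (−1.631), CRK5 (−1.889), GORK (−0.8349) and PHO1, a phosphate exporter of the root (−0.4236). Some of these responses were near 0, so their sign carries little. In hypoxia CCA1 had 0.16, 0.009 and 0.05, JAZ3 0.07 in replicate 3 and CRK5 −0.05 in replicate 3. In normoxia CCA1 had −0.05 in replicate 3, AT4G27810 −0.07 in replicate 1 and PHO1 0.09 in replicate 1. All 12 were named through a ranking by this same contrast, so these signs are a description.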

How the results depend on the processing

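The number of genes called for the interaction was 0 by edgeR's quasi-likelihood test under every filter, size factor, dispersion and sample left out, with 46 to 392 positive and 181 to 568 negative genes at an unadjusted p under 0.05. DESeq2 in a model with the replicate block called 7. The replicate numbers did not meet the condition for pairing, since the same-numbered pairs of HF replicate 3 correlated at −0.111 to −0.00892 and the others at 0.264 to 0.772. Without the replicate block edgeR called 0 genes and 227 reached that p (46 positive and 181 negative).

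The median difference from the sum ran from −0.06725 (without HF replicate 1) to 0.0379 (without replicate number 3), and it was −0.1306 over the published 2 h hypoxia list, an alternative chosen after the data were seen. The share within 1.5-fold of the sum was 89.11% with a minimum of 1 CPM, 96.23% on the CPM scale, 62.45% over the published list, and 89.93% to 94.52% over samples left out. The flg22 slope ran from 0.6432 (without HM replicate 2) to 1.006 (without HM replicate 1). The cause of these shifts was not tested.

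Of the named genes, 3 changed direction. ZAT11 ran from −2.991 to 0.8149 (the latter without HM replicate 1, with 0.1541 and −2.86 without replicate numbers 1 and 2), CRK39 from −5.561 to 1.016 (without replicate number 1, and 0.3316 without HM replicate 1), and ERF73 from −0.4683 to 0.2348 (the latter without replicate number 3, with −0.461 without replicate number 2, 0.1624 without HF replicate 3 and 0.2221 without HM replicate 1). With 3 samples per group, genes at a few reads carry little information.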
